A study of Homo sapiens with 6 samples.

Results

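Caveolae are small flask-shaped invaginations of the plasma membrane, and the 10 genes followed here encode the proteins that build their coat (CAV1, CAV2, CAV3, CAVIN1, CAVIN2 and CAVIN3), those that shape their neck (EHD2 and PACSIN2) and the flotillins of a related membrane domain (FLOT1 and FLOT2). They were chosen by name and not by a cut on their measured values, although earlier results of these data were known. All 10 had a row among the 57445 genes of the table. MDA-MB231 is an established human breast cancer cell line of the triple-negative, mesenchymal type. Cells were transduced with a lentiviral pGIPZ vector carrying either a non-silencing shRNA (shCTL, an empty vector in the labels) or an shRNA against ROR1 (shRor1), and both were kept under selection with puromycin at 2 µg/ml. Each condition was sequenced in 3 libraries as single reads of 50 bases. The sources do not state whether a condition is a single clone or a pool of cells, nor whether its libraries came from separate cultures, so that p-values measure the spread between these libraries, which may be technical. In the deposited table the headers of the control columns also hold the word DMSO, which appears in neither the sample labels nor the study's text, and a difference in this solvent cannot be told apart from the difference in shRNA.

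ROR1, an orphan receptor tyrosine kinase that binds Wnt5a, has been described in lung adenocarcinoma cells as a scaffold that holds caveolin 1 and cavin 1 together at the membrane, and it has also been linked to cavin 3. Caveolins are hairpin proteins that oligomerise in the membrane, and cavins are cytosolic proteins that assemble on top of them, with cavin 1 needed for a caveola to form. In cells that lack cavin 1, caveolin can leave the flask and diffuse in flat membrane. Flotillins assemble into domains of their own that do not need cavins. An interaction of this kind acts on proteins, while the values here are mRNA levels, and they address whether the mRNAs of these proteins differed when ROR1 was targeted.

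The values are TPM, a share of all transcripts of a library, corrected for gene length and scaled to a fixed total, so that levels of different genes may be set side by side within a library. Fold changes are given as shRor1 minus shCTL on the log2(TPM + 1) scale, and libraries are numbered by the order of their columns, since the columns carry no replicate number. A level of 1 TPM was reached by 16036 to 16597 genes per shCTL library, and by 16317 to 17033 genes per shRor1 library. TPM keeps no read depth, so counting error could not be separated from the spread between libraries. Of the markers listed for this line, VIM, CD44, EGFR and ANXA1 all exceeded 1 TPM in every library. Among the 6 listed as low or absent, ESR1 and PGR stayed below 1 TPM in every library, whereas KRT8 had 521 TPM on average in shCTL, against its listing, as did EPCAM with 14.5 TPM and ERBB2 with 26.55 to 34.90 TPM over the 6 libraries. CDH1, the epithelial cadherin, had 1.01, 0.80 and 1.22 TPM in shCTL and 1.36, 1.41 and 1.47 TPM in shRor1, near the 1 TPM limit. Its groups alone among these 6 did not overlap, as for 7.78% of all tested genes (unadjusted p = 0.085, adjusted p = 0.984 from limma). ROR1 itself had 15.42, 13.49 and 20.56 TPM in shCTL and 9.34, 11.93 and 14.85 TPM in shRor1, ranges that overlapped. Its log2 fold change was -0.43 (95% interval -0.88 to 0.03, adjusted p = 0.984 from limma), or 0.745-fold. This was larger in size than for 97% of the tested genes, but the interval included 0. The mRNA contrast behind every comparison below was therefore itself uncertain. The paper shows the stable knockdown by Western blot of Ror1 protein, which these mRNA values do not measure.

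Of the 10 genes, only CAV1 and CAV2 are neighbours. In GRCh37, CAV2 (ENSG00000105971.9) spans 115927434 to 116148595 on chromosome 7 and CAV1 (ENSG00000105974.7) spans 116165048 to 116201233, both on the plus strand and 16452 bases apart. CAV3 (ENSG00000182533.6) lies on chromosome 3 from 8775488 to 8883492, plus strand. CAVIN1 (ENSG00000177469.12) and FLOT2 (ENSG00000132589.11) share chromosome 17 but lie far apart, from 40554467 to 40575274 and from 27206353 to 27224751, both on the minus strand. CAVIN2 (ENSG00000168497.4) is found on chromosome 2 from 192699036 to 192711814 and CAVIN3 (ENSG00000170955.9) on chromosome 11 from 6340176 to 6341762, both minus. EHD2 (ENSG00000024422.7) occupies 48216679 to 48246391 on chromosome 19, plus strand, PACSIN2 (ENSG00000100266.12) 43231418 to 43411155 on chromosome 22, minus strand, and FLOT1 (ENSG00000137312.10) 30695486 to 30710509 on chromosome 6, minus strand. All are protein-coding. PACSIN2 shares 155 exonic bases with ARFGAP3 on the same strand, and CAVIN2 and CAVIN3 have antisense transcripts over 238 and 571 exonic bases. Strand cannot separate PACSIN2 from ARFGAP3 over the shared bases, so a few of their reads may be divided between them. The antisense partner of CAVIN3 was not among the genes with a value. Whether the authors' counting used strand is not given in the sources used here, so a few reads of CAVIN2 may be divided with its partner.

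The promoter sequences of 3 members are shown. CAV1 and CAV2 were taken as neighbours in the genome. CAVIN2 was taken for the widest spread between libraries of the tested members and the same order of libraries as CAV1, as described further on. They are the 250 bases before the most upstream annotated start of each gene, 5′ to 3′ on the coding strand, from RefSeq on GRCh38.p14, at chr7:116524759-116525008 (plus) for CAV1, chr7:116499488-116499737 (plus) for CAV2 and chr2:191847089-191847338 (minus) for CAVIN2. Capitals mark matches, on either strand, to the GC box GGGCGG and to CATTCC, a word bound by TEAD factors.
CAV1: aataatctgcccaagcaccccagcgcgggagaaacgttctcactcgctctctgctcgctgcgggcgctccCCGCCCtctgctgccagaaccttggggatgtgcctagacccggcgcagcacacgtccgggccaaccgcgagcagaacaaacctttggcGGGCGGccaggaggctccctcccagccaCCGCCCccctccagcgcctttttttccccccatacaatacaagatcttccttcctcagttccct
CAV2: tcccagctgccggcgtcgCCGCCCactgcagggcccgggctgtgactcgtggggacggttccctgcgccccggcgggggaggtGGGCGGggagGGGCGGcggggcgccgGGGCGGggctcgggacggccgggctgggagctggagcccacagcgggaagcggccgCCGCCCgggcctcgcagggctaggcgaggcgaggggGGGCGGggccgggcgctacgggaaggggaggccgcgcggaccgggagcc
CAVIN2: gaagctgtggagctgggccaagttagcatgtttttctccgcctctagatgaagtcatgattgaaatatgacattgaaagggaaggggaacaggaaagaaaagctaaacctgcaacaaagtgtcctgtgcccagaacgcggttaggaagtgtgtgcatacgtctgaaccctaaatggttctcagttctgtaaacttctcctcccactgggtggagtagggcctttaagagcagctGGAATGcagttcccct
The neighbours CAV1 and CAV2 held 3 and 6 GC boxes, and CAVIN2 held none. Over all 35116 promoter windows of this length in the RefSeq table, 42.6% held a GC box. CAVIN2 held 1 CATTCC word, at bases -16 to -11 from its start, which 11.9% of all windows also held. The GC content of the windows was 63.6% for CAV1, 83.2% for CAV2 and 48% for CAVIN2, where the median over all windows was 58%. A window was present for 8 of the 10 members, and 6 of these 8 held a GC box (CAV1, CAV2, EHD2, PACSIN2, FLOT1 and FLOT2). The word TATAAA was found in none of the 8 (10.7% of all windows), and the AP-1 word TGANTCA in FLOT2 alone (6.57% of all windows). Such a match describes the letters only and not the binding of a factor.

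The caveolin family was dominated by CAV1, the main structural protein of caveolae outside muscle. CAV1 had 381.72, 429.32 and 497.23 TPM in shCTL and 374.33, 485.39 and 512.66 TPM in shRor1, which placed it at rank 298 of the 16554 genes tested by its shCTL mean. The lowest and the highest of the 6 values both came from shRor1, so that the knockdown libraries enclosed the controls. The means were 436 ± 58.0 TPM for shCTL and 458 ± 73.3 TPM for shRor1 (SD, n = 3 each), a log2 fold change of 0.06 (95% interval -0.27 to 0.39, adjusted p = 0.986 from limma). On the linear scale this interval runs from 0.831-fold to 1.31-fold. The sign turned without the first shCTL library (-0.03), without the third shRor1 library (-0.02) and after median ratio scaling (-0.02), and the value was 0.20 without the first shRor1 library. CAV2, a partner that is retained in the Golgi unless it binds caveolin 1, had 66.60, 62.80 and 86.78 TPM in shCTL and 62.37, 82.17 and 95.91 TPM in shRor1. Its lowest value was again a shRor1 library and the ranges overlapped, with a log2 fold change of 0.14 (95% interval -0.27 to 0.56, adjusted p = 0.984 from limma). Single libraries moved it from 0.0051, when the third shRor1 library was left out, to 0.31, when the first was. CAV3, the caveolin of skeletal and heart muscle, stayed between 0.04 and 0.23 TPM in the 6 libraries and was not tested, since it passed the minimum of 1 TPM in no library.

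Among the cavins, cavin 1 was the most abundant mRNA and the steadiest. CAVIN1, which encodes the cavin required for the coat to assemble, had 292.69, 289.01 and 332.44 TPM in shCTL and 289.60, 297.61 and 307.44 TPM in shRor1. All 3 shRor1 values fell inside the range of the controls. It was the only tested member with a lower mean in shRor1, by a log2 fold change of -0.03 (95% interval -0.21 to 0.15, adjusted p = 0.987 from limma), and the sign turned without the third shCTL library (0.04). The interval in linear terms was 0.867-fold to 1.11-fold, among the narrowest of the members.

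CAVIN2, whose product binds phosphatidylserine and helps to extend the membrane tubule, differed most of the tested members between libraries of a single condition. It had 52.85, 67.96 and 140.19 TPM in shCTL and 47.60, 85.23 and 143.41 TPM in shRor1. The third library of each condition was high and the first was low, with a 2.65-fold range among controls and a 3.01-fold range among knockdown libraries. The means, 87 ± 46.7 TPM and 92.1 ± 48.3 TPM (SD, n = 3 each), were close to each other, and the log2 fold change of 0.07 carried a 95% interval of -0.99 to 1.12 (adjusted p = 0.994 from limma). A change of CAVIN2 by up to about 2.18-fold upward or to 0.505 of the control therefore lay within the interval. The direction rested on single libraries, with -0.32 without the third shRor1 library, -0.22 without the first shCTL library, -0.04 without the second shCTL library 0.47 both when the third shCTL library and when the first shRor1 library was left out, and it was -0.01 after median ratio scaling. CAVIN3, a cavin that binds protein kinase C delta and links caveolae to signaling, had 53.48, 49.21 and 66.72 TPM in shCTL and 51.33, 62.77 and 77.15 TPM in shRor1. Its groups overlapped and its log2 fold change was 0.16 (95% interval -0.22 to 0.55, adjusted p = 0.984 from limma). Omitting the third shRor1 library lowered it to 0.02 and omitting the first raised it to 0.31, and it was 0.0855 after median ratio scaling.

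**Figure D1:**
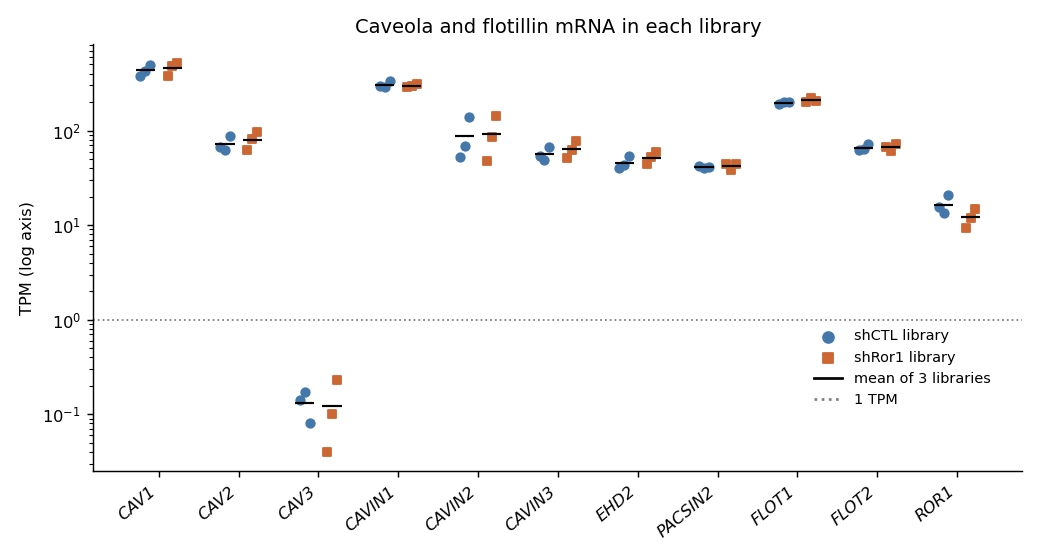
TPM (log axis) of the 10 caveola and flotillin genes and of the targeted gene ROR1 in each of the 3 shCTL (circles) and 3 shRor1 (squares) libraries, with the mean of each condition as a black bar and 1 TPM as a dotted line. CAV1 lies between 374.33 and 512.66 TPM and CAV3 between 0.04 and 0.23 TPM, and the 2 conditions overlap for every gene. Of the tested members, which leave out CAV3, CAVIN2 has the widest scatter within a condition.

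Summed as a coat, the 6 caveolin and cavin mRNAs summed to 847.48, 898.47 and 1123.44 TPM in shCTL and to 825.27, 1013.27 and 1136.80 TPM in shRor1. Both the lowest and the highest sum belonged to shRor1 (exact permutation test, two-sided p = 0.9, n = 3 against 3, where the smallest possible p is 0.1). CAV1 made up 45.6% of this sum in shCTL and 46.1% in shRor1, and CAVIN1 31.9% and 30.1%. CAV2 contributed 7.53% and 8.08%, CAVIN2 9.10% and 9.28%, and CAVIN3 5.90% and 6.43%. The difference of the sums, 35.3 TPM higher in shRor1, turned to -19.3 TPM after median ratio scaling.

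At the neck of the caveola, EHD2, an ATPase that anchors the flask to the surface, had 40.36, 42.86 and 54.30 TPM in shCTL and 44.02, 52.10 and 59.22 TPM in shRor1. It had the largest log2 fold change of the 9 tested members, 0.17 (95% interval -0.16 to 0.51, adjusted p = 0.984 from limma), with overlapping groups. Of all tested genes, 77% had a smaller absolute log2 fold change than EHD2, so its size was not unusual in this comparison. The change of EHD2 ran from 0.07 without the third shRor1 library to 0.30 without the third shCTL library. It was 0.09 without the first shCTL library, 0.28 without the first shRor1 library and 0.095 after median ratio scaling. In each of these settings another member had a change larger in size. These were CAVIN2 and FLOT1 without the third shRor1 library and CAVIN2 without the third shCTL library. Without the first library of either condition they were CAVIN2, CAVIN3 and CAV2, and after median ratio scaling CAVIN1. Without the second shRor1 library CAVIN3 was marginally larger. PACSIN2, an F-BAR protein that bends membrane at the neck, had 42.39, 40.02 and 41.32 TPM in shCTL and 43.83, 37.85 and 44.30 TPM in shRor1. Here the shRor1 values lay on both sides of the controls (log2 fold change 0.02, 95% interval -0.18 to 0.22, adjusted p = 0.987 from limma), and the sign turned after quantile normalization (-0.01) and median ratio scaling (-0.06).

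Of the flotillins, FLOT1 had 188.58, 198.77 and 200.13 TPM in shCTL and 199.22, 222.63 and 206.38 TPM in shRor1. Only the lowest shRor1 library entered the range of the controls. FLOT1 had the smallest unadjusted p of the members, 0.211 (log2 fold change 0.10, 95% interval -0.07 to 0.26, adjusted p = 0.984 from limma). The change kept its sign under all 13 alternative fits, as did those of CAV2, CAVIN3 and EHD2. Its lowest value was 0.02, after median ratio scaling. FLOT2, with which flotillin 1 forms hetero-oligomers, had 62.32, 63.05 and 72.05 TPM in shCTL and 67.52, 60.97 and 72.11 TPM in shRor1, values that were interleaved. Its log2 fold change was 0.02 (95% interval -0.19 to 0.24, adjusted p = 0.987 from limma) and turned to -0.06 after median ratio scaling. The sum of both flotillins was 262 ± 10.6 TPM in shCTL and 276 ± 8.65 TPM in shRor1 (SD, n = 3 each; exact permutation test, two-sided p = 0.2).

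Set in order of their shCTL means, the tested members ran from CAV1 over CAVIN1, FLOT1, CAVIN2, CAV2, FLOT2, CAVIN3 and EHD2 to PACSIN2. CAV1, CAVIN1 and FLOT1 were separated from each other in every library, with FLOT1 never above 222.63 TPM and CAVIN1 never below 289.01 TPM. CAVIN2 lay below FLOT1 and EHD2 below CAVIN3 in all 6 libraries as well. The other neighbours changed places in at least 1 library (CAVIN2 and CAV2, CAV2 and FLOT2, FLOT2 and CAVIN3, EHD2 and PACSIN2), so that their order could not be told apart from the spread.

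In the comparison across all 16554 tested genes, 0 genes had an adjusted p below 0.05 (limma, 0% of those tested), and 472 genes had an unadjusted p below 0.05 (2.85%). Of the 9 tested members, 0 reached an unadjusted p below 0.05 and 0 an adjusted one. The libraries of the 2 conditions did not overlap for 7.78% of all tested genes and for 0 of the 9 members. The share of higher genes among the 472 was 80.9% with TPM as deposited, 53.9% after quantile normalization and 50.3% after median ratio scaling. Over all tested genes, 11093 of 16554 had a higher mean in shRor1 with TPM as deposited. Among the members this held for 8 of 9 with TPM as deposited, for 6 after quantile normalization and for 4 after median ratio scaling. The median log2 fold change of the members was 0.07, beside 0.05 over all tested genes. The 95% intervals given for each member rest on TPM as deposited and on the spread between these 6 libraries, which may be technical.

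**Figure D2:**
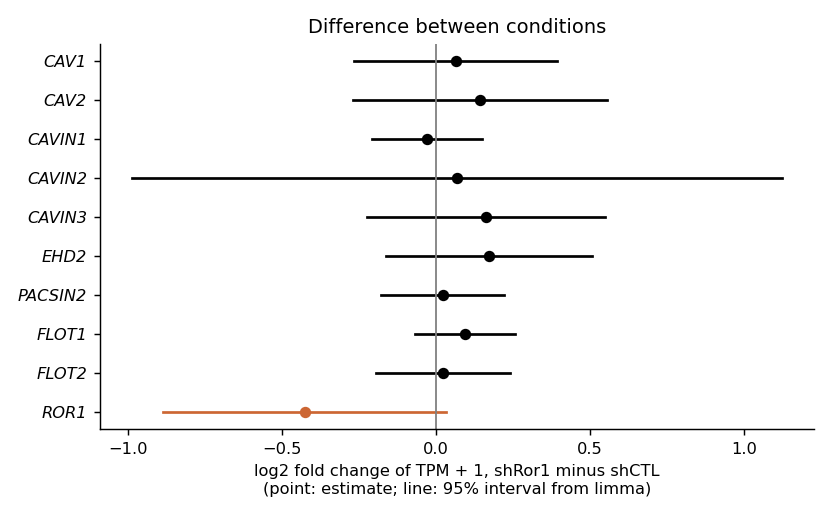
Log2 fold change of TPM + 1 between conditions (shRor1 minus shCTL) for the 9 tested members and ROR1, each point with its 95% interval from limma. Every interval includes 0, the narrowest belonging to FLOT1 (-0.07 to 0.26) and the widest to CAVIN2 (-0.99 to 1.12).

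Ratios of TPM between members do not depend on how a library was scaled, and 7 of them were compared between conditions. The coat ratio of CAV1 to CAVIN1 was 1.3, 1.49 and 1.5 in shCTL and 1.29, 1.63 and 1.67 in shRor1, so CAV1 mRNA exceeded CAVIN1 mRNA in all 6 libraries. CAV1 exceeded CAV2 by 6.10 ± 0.638-fold in shCTL and by 5.75 ± 0.355-fold in shRor1 (SD, n = 3 each). FLOT1 exceeded FLOT2 by 2.99 ± 0.191-fold and 3.16 ± 0.433-fold. The ratio of EHD2 to CAV1 stayed within 0.0998 and 0.118 in the 6 libraries, the tightest of the 7, while that of CAVIN2 to CAVIN1 ran from 0.164 to 0.467. For CAVIN3 to CAVIN1 the mean was 0.185 ± 0.0153 in shCTL and 0.213 ± 0.0369 in shRor1, with overlapping groups. Exact two-sided permutation tests of the log2 ratios (3 against 3 libraries) gave p from 0.2, for EHD2 to CAV1, to 0.8, and 0.8 for each of the 7 after Benjamini-Hochberg adjustment.

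For 8 of the 9 tested members, all but FLOT1, the log2 fold change was smaller in size than the SD between libraries of a condition. After median ratio scaling the exception was CAVIN1 instead (-0.1086, SD 0.045), with FLOT1 at 0.0153 (SD 0.0869). The SD was uneven between members. The SD between libraries of a condition on the log2(TPM + 1) scale was 0.75 for CAVIN2, larger than in 98.8% of the tested genes. It was 0.28 for CAV2, 0.26 for CAVIN3, 0.22 for CAV1 and 0.22 for EHD2, beside a median of 0.15 over all tested genes. CAVIN1 (0.08), PACSIN2 (0.09), FLOT1 (0.07) and FLOT2 (0.12) lay below this median. After median ratio scaling the SD was 0.70 for CAVIN2, 0.17 for CAV1 and 0.05 for CAVIN1, so that the gap between the cavins was also present in that scaling.

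**Figure D3:**
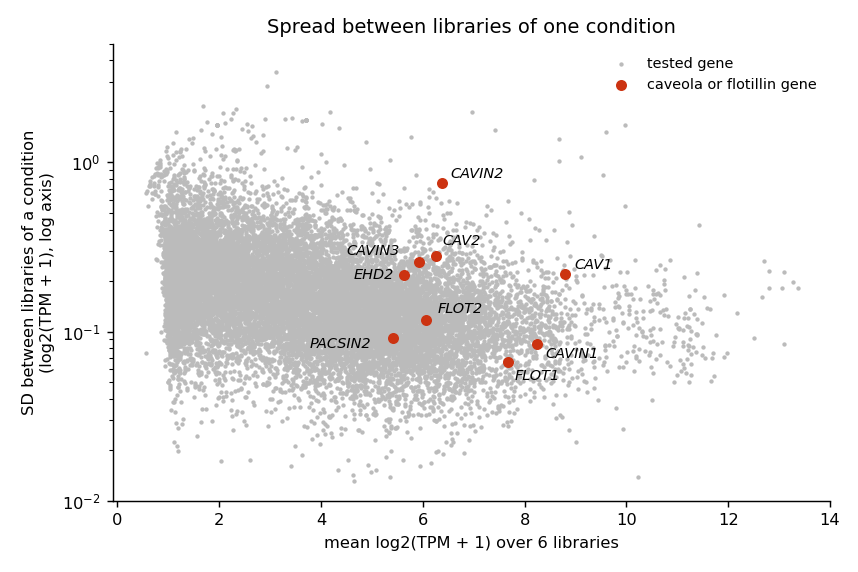
SD between libraries of a condition (log axis) against the mean log2(TPM + 1) over the 6 libraries, for the 16554 tested genes (grey) and the 9 tested members (red). CAVIN2 lies at an SD of 0.75, well above genes of its level, whereas CAVIN1 (0.08) and FLOT1 (0.07) lie in the lower part of the cloud.

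Of the members, CAVIN2 had the highest correlation with CAV1 over all 6 libraries. Over the 6 libraries, log2(TPM + 1) of each of the other 8 tested members was compared with that of CAV1, a comparison added after the values were seen. CAVIN2 ranked the libraries exactly as CAV1 did (Spearman's rho = 1, exact permutation p = 0.00278, the smallest that 6 libraries can give), with Pearson's r = 0.95 (exact permutation p = 0.00278). Adjusted over the 8 relations with the Benjamini-Hochberg method, both exact p were 0.0222 for CAVIN2. The permutation takes the libraries as exchangeable, whereas the median r with CAV1 over all other tested genes was 0.262. The p of this comparison are therefore descriptive and cannot show that a relation is particular to a member. For EHD2 r was 0.919 and rho 0.829 (exact p = 0.025 and 0.0583, adjusted 0.0741 and 0.117), and for CAV2 r was 0.911 and rho 0.943 (exact p = 0.0278 and 0.0167, adjusted 0.0741 and 0.0668). CAVIN3 followed with r = 0.856 and rho = 0.829 (exact p = 0.0444 and 0.0583, adjusted 0.0888 and 0.117), and these 3 relations missed the threshold after adjustment. For CAVIN1 (r = 0.691, rho = 0.771), FLOT1 (r = 0.634, rho = 0.657), FLOT2 (r = 0.429, rho = 0.486) and PACSIN2 (r = -0.261, rho = 0.0286) the exact p ranged from 0.0583 to 1, and from 0.0933 to 1 after adjustment. These 4 values of r depended on the scaling, being 0.226 for CAVIN1, 0.184 for FLOT1, -0.119 for FLOT2 and -0.835 for PACSIN2 after median ratio scaling, where CAVIN2 (0.88), EHD2 (0.844), CAV2 (0.819) and CAVIN3 (0.716) stayed positive.

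Without the 2 libraries farthest from the median of CAV1, the first of each condition, r over the other 4 was 0.888 for CAVIN2, 0.993 for EHD2, 0.997 for CAV2 and 0.98 for CAVIN3. Taken as deviations from the mean of their condition, the values gave r = 0.957 for CAVIN2, 0.952 for EHD2, 0.914 for CAV2 and 0.863 for CAVIN3. The labels give no date or batch within which the relations could be recomputed. High correlations with CAV1 were common in these libraries, since the upper quartile of r over all 16553 other tested genes was 0.641. An r at least as high as that of CAVIN2 was found in 1.23% of these genes, as that of EHD2 in 2.86%, of CAV2 in 3.44% and of CAVIN3 in 7.42%. The third library of each condition held the highest value of its condition for 7 of the 9 tested members and for 33.6% of all tested genes, and these 2 libraries also had the most genes at 1 TPM or more.

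Markers of other cells rich in caveolae and of leukocytes, summed, were also highest in the third library of each condition, at a very low level. Of the 9 endothelial, adipocyte, muscle and leukocyte markers listed, 8 had a row in the table, and MYOD1 was listed at 0 in all 6 libraries. The 8 summed to 1.58, 1.94 and 4.37 TPM in shCTL and to 2.09, 1.62 and 5.97 TPM in shRor1, and no marker reached 1 TPM in all libraries. Within shRor1 the sum was lower in the second than in the first library, the opposite of CAV1. Most of the sum came from DES, the intermediate filament of muscle, with 0.54, 0.98 and 2.04 TPM in shCTL and 1.26, 0.55 and 3.23 TPM in shRor1, and from CDH5. CDH5, an endothelial cadherin, had 0.32, 0.52 and 1.47 TPM in shCTL and 0.34, 0.54 and 1.56 TPM in shRor1, again highest in the third libraries, while VWF stayed at or below 0.21 TPM. ADIPOQ, an adipocyte hormone, had its highest shRor1 value in the second library (0.28 TPM), and PTPRC, the leukocyte antigen CD45, its highest shCTL value in the first (0.27 TPM). Their part in the pattern was not tested. The samples are of a single cultured cell line, and in bulk RNA fewer cells of a type and less RNA per cell cannot be told apart.

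**Figure D4:**
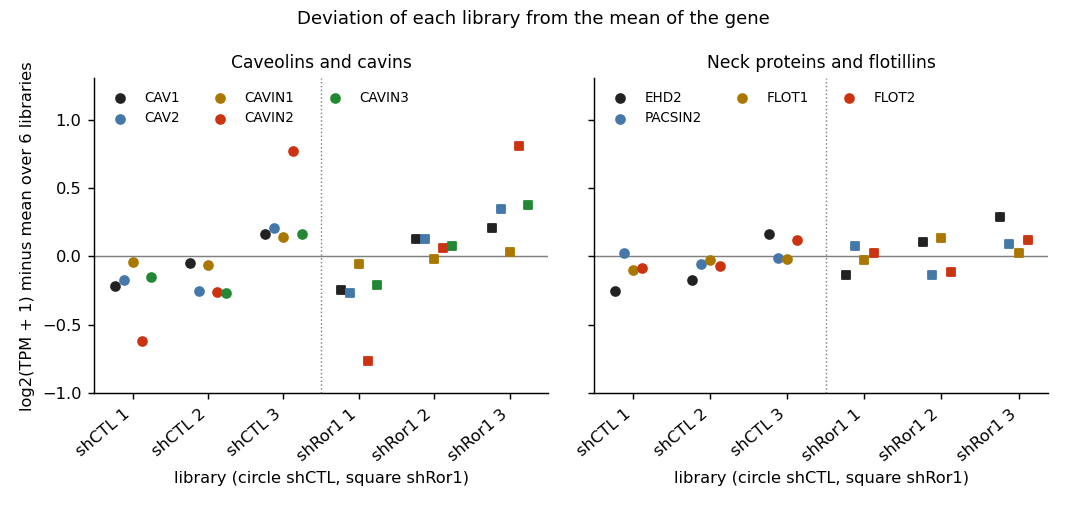
Deviation of log2(TPM + 1) in each library from the mean of the gene over the 6 libraries, for caveolins and cavins (left) and for neck proteins and flotillins (right), with shCTL as circles and shRor1 as squares. CAVIN2 (red, left) is lowest in the first and highest in the third library of both conditions, and CAV1, CAV2, CAVIN1, CAVIN3, EHD2 and FLOT2 also peak in the third library of both, by smaller deviations (CAVIN1 0.14 and CAV1 0.17 in the third shCTL library).

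Among the genes whose centred profile over the 6 libraries was closest to that of CAV1, by the root mean square difference of log2(TPM + 1), were MT-ATP8 (0.0223) and FRMD8 (0.0233). EHD2 stood at rank 214 of the 16553 other tested genes by this measure and CAV2 at rank 900, while CAVIN2, which moved in the same order but much further, stood at rank 15914. Closest to CAVIN1 were PGAP6 (0.0136), the unnamed gene ENSG00000236540 (0.0142) and UNC45A (0.0182), with FLOT2 as the nearest member at rank 821. FLOT1 was closest to CGGBP1 (0.0153), RUNDC1 (0.0167) and NANP (0.017), and its partner FLOT2 stood at rank 6199. With only 6 libraries, small differences of this kind arise for many genes.

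Of the 14 further genes of the caveola neck, of scission and of the kinases that phosphorylate caveolin 1, 12 were tested. With TPM as deposited, 7 had a higher and 5 a lower mean in shRor1, beside 11093 of 16554 tested genes with a higher mean. In limma, 0 of the 12 reached an unadjusted p below 0.05, beside 2.85% of all tested genes, and 0 an adjusted one. FLNA, the actin crosslinker filamin A to which caveolin 1 is tethered, was the most abundant with 390 TPM in shCTL and 386 TPM in shRor1 (log2 fold change -0.02, SE 0.08). DNM1, a dynamin that pinches vesicles off the membrane, had the largest fold change on this list (0.19, SE 0.12, adjusted p = 0.984 from limma). EHD3 was listed at 0 in all 6 libraries and PACSIN1 stayed at or below 0.09 TPM. CAVIN4, the muscle cavin, lay near the limit with 0.94 to 1.65 TPM.

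Among 9 other genes with the SPFH domain that flotillins carry, 7 were tested. With TPM as deposited, 1 had a higher and 6 a lower mean in shRor1, beside 11093 of 16554 tested genes with a higher mean. In limma, 0 of the 7 had an unadjusted p below 0.05, beside 2.85% of all tested genes. PHB1, a prohibitin of the inner mitochondrial membrane, was the most abundant (546 TPM in shCTL and 513 TPM in shRor1), and STOML2 had the largest fold change (-0.12, SE 0.11, adjusted p = 0.984 from limma). STOML3 was listed at 0 in all libraries. The median log2 fold change of this list was -0.04, beside 0.05 over all tested genes.

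Clathrin-coated pits are the main other route of uptake at the plasma membrane, and all 11 clathrin coat genes listed were tested, 7 with a higher and 4 with a lower mean in shRor1. Over all tested genes, 11093 of 16554 had a higher mean with TPM as deposited. None of the 11 had an unadjusted p below 0.05 in limma (0 of 11, beside 2.85% of all tested genes). AP2S1, the small subunit of the AP-2 adaptor, was the most abundant (372 TPM in shCTL and 347 TPM in shRor1), and AP2A2 had the largest fold change (0.14, SE 0.09, adjusted p = 0.984 from limma). For PICALM alone of the 11 the groups did not overlap, with 126.67 to 129.87 TPM in shCTL and 131 to 148.08 TPM in shRor1, which was noted after its values were seen and compares with 7.78% over all tested genes.

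The receptors tied to ROR1 and caveolae, EGFR, ERBB3, MET and IGF1R, were all tested. All 4 had a higher mean in shRor1 with TPM as deposited, beside 11093 of 16554 tested genes. EGFR was the most abundant with 84.2 ± 5.75 TPM in shCTL and 85.1 ± 4.41 TPM in shRor1 (SD, n = 3 each), a log2 fold change of 0.02 that turned to -0.06 after median ratio scaling. MET had the largest log2 fold change of the 4, 0.16 (95% interval -0.12 to 0.44, adjusted p = 0.984 from limma). EGFR, ERBB3 and IGF1R, like CAVIN2, were highest in the third library of each condition, which held for 33.6% of all tested genes. IGF1R had 11.09, 9.94 and 19.58 TPM in shCTL and 13.08, 11.97 and 18.83 TPM in shRor1.

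**Figure D5:**
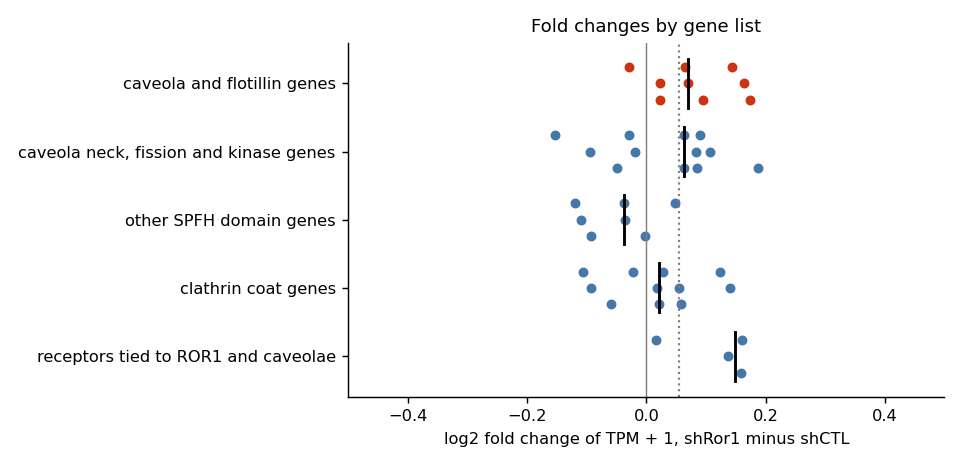
Log2 fold change of TPM + 1 (shRor1 minus shCTL) of each tested gene in the caveola and flotillin list (red) and in the 4 context lists (blue), with the median of each list as a black bar and the median over all 16554 tested genes (0.05) as a dotted line. All values lie between -0.15 and 0.19, and the medians run from -0.04 (other SPFH domain genes) to 0.15 (receptors).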

How the data were processed

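Per the methods, libraries from total RNA (polyA RNA in the labels) made with a stranded kit were sequenced, mapped by the authors to GRCh37 with STAR and Ensembl 73, and quantified with RSEM 1.2.5. The authors deposited TPM per gene and library (2 decimals, each column summing to 1000000), although the table is named for expected counts, so their count model could not be fitted. Since TPM sums to a constant, a rise of abundant genes pushes the other values down. The test kept the 16554 of 57445 genes that reached 1 TPM in 3 or more of the 6 libraries, log2(TPM + 1) was taken, and condition was fitted with limma 3.58.1 (R 4.3.3) with the variance trended on mean level, and p-values were adjusted by Benjamini-Hochberg (threshold 0.05). A pseudocount of 1 understates changes of low genes. The fit was tested on simulated data with independent noise in each gene and library, which cannot cover effects that genes of a library share. Ratios and sums were compared by exact permutation tests (scipy 1.17.1), which cannot go below p = 0.1 with 3 against 3. Symbols and GRCh37 positions came from GENCODE 44 (55022 identifiers matched), a later annotation than that of the authors. The members and gene lists were chosen with earlier results of these data known. Named are all members, ROR1, the most abundant and the most changed gene of each context list, those listed below 1 TPM, and the 3 nearest profiles of CAV1, CAVIN1 and FLOT1, except for genes that are not reported here. The alternatives tried were no filter, a minimum mean of 5 TPM, a pseudocount of 0.1, quantile normalization, median ratio scaling, no trend, sums by symbol, and each library left out in turn.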

Additional observations from a re-analysis of the deposited data

How the results depend on the processing

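No paired analysis was possible because no column header numbers its library. At an adjusted p below 0.05, limma called 0 genes in 12 of the 13 alternatives and 1 gene (RPL39P3, chosen after its values were seen) without the third shRor1 library, and 0 members were called under any of the 13. The number at an unadjusted p below 0.05, 472 as reported, was 1363 without a filter, 227 at a mean of at least 5 TPM, and between 278 (second shCTL library) and 1720 (first shRor1 library) when the library named was omitted. ROR1 stayed lower in shRor1 under all 13, by log2 fold changes of -0.58 to -0.26 (adjusted p from 0.625 to 1).

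Of 18 genes with a log2 fold change in the text, 11 kept their direction under every alternative. After median ratio scaling the sign turned for CAV1 (-0.016), CAVIN2 (-0.0104), PACSIN2 (-0.0562), FLOT2 (-0.0566) and EGFR (-0.0637), for the summed TPM of the coat (-19.3) and of the flotillins (-0.14), and for the correlation of FLOT2 with CAV1 (-0.119). After quantile normalization it turned for PACSIN2 (-0.0114), FLOT2 (-0.0034) and EGFR (-0.0035). When single libraries were omitted, log2 fold changes ran from -0.0274 to 0.202 for CAV1, -0.0651 to 0.0356 for CAVIN1, -0.317 to 0.473 for CAVIN2, -0.0172 to 0.0936 for PACSIN2, -0.0329 to 0.0885 for FLOT2, -0.0376 to 0.0593 for EGFR and -0.0889 to 0.0262 for FLNA. In the same way, log2 ratios differed by -0.124 to 0.0033 for CAV1 to CAV2, -0.27 to 0.482 for CAVIN2 to CAVIN1, -0.212 to 0.0809 for PACSIN2 to CAV1 and -0.0369 to 0.139 for FLOT1 to FLOT2, and the coat sum by -37.2 to 119 TPM. The cause was not tested. TPM keeps no depth, so the share of counting error in low genes such as CAV3 is unknown.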
